A study of Homo sapiens with 18 samples.

Results

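H3K4me3 and H3K27me3 were compared across protein-coding promoters in the control V16D cells (V16D/CTL), to ask which promoters carried the activating mark, the repressive mark, both or neither in the absence of added H19. V16D is a castration-resistant prostate cancer line derived from LNCaP. The V16D/CTL cells had been transduced with a control lentivector, and the V16D/H19 cells with a lentivector that overexpresses the long non-coding RNA H19. Each group was a biological triplicate of this 1 line grown in RPMI1640 with serum, and each replicate gave 1 chromatin immunoprecipitation for H3K4me3, 1 for H3K27me3 and 1 input. Of the 18 libraries in the series, the 6 V16D/CTL peak lists define the promoter classes, and the 6 V16D/H19 lists serve only for comparison. A promoter was the window of 1 kb on either side of the RefSeq start of a gene, and it was assigned to a mark when a peak lay in it in at least 2 of the 3 lists of that mark. Of 20037 protein-coding genes, 19675 had a known strand and so a start. By this rule 11175 promoters (56.8%) were H3K4me3 only, 1024 (5.20%) H3K27me3 only, 1065 (5.41%) both and 6411 (32.6%) neither. These counts are what the rule sets, and they are the background against which every gene list is read.

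H3K4me3 is laid down by the KMT2 and SETD1 complexes around the starts of active or activatable genes. H3K27me3 is laid down by Polycomb repressive complex 2 (PRC2), whose catalytic subunit is EZH2, and it marks silent developmental genes. Promoters that carry both are called bivalent and are best known from embryonic stem cells, where they hold developmental regulators silent but inducible. In these bulk libraries, marks on the same nucleosome, on different alleles and in different cells cannot be told apart. Promoters with a high H3K27me3 fold for their class or a wide H3K4me3 peak, and a listed basal marker with neither mark, are shown as sequence. They are examples and need not be typical of their class. Each line gives the 250 bases upstream of the start, 5′ to 3′ on the strand of the gene, from RefSeq on GRCh38.p14, with every CG pair in capitals, because CG density differed between the classes. MYL3, which encodes a myosin light chain of the heart, carried both marks and lies at chr3:46882183-46882432 on the minus strand.
MYL3: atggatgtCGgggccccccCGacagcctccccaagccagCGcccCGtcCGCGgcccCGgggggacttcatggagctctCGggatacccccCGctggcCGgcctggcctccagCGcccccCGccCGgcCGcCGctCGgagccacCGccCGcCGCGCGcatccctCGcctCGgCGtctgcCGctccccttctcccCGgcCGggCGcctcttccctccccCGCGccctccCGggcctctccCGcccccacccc
FGFR3, a receptor for fibroblast growth factors, carried both marks and lies at chr4:1793043-1793292 on the plus strand.
FGFR3: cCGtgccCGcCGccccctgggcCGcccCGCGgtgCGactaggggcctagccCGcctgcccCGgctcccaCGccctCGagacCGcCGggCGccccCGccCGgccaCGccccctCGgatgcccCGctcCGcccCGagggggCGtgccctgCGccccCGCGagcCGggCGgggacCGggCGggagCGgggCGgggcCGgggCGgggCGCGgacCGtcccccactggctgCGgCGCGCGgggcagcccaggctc
CALY, which encodes a vesicle protein of neurons, was H3K27me3 only and lies at chr10:133336897-133337146 on the minus strand.
CALY: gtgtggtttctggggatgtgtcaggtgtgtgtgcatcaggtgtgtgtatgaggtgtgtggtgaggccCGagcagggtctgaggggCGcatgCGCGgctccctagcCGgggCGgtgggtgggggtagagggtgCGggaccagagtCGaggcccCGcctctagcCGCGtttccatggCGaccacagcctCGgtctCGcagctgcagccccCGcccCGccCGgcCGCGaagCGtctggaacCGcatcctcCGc
LOC124905938, a predicted gene, was H3K27me3 only and lies at chr2:91444102-91444351 on the minus strand, close to the centromere, where the placing of 75 bp reads among repeats is uncertain.
LOC124905938: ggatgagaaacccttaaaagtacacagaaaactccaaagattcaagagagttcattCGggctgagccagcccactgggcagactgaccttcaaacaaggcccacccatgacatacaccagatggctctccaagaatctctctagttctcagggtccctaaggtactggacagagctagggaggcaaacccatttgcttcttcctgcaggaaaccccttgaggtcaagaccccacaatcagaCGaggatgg
FOXA1, the pioneer factor of luminal prostate cells, was H3K4me3 only and lies at chr14:37595250-37595499 on the minus strand.
FOXA1: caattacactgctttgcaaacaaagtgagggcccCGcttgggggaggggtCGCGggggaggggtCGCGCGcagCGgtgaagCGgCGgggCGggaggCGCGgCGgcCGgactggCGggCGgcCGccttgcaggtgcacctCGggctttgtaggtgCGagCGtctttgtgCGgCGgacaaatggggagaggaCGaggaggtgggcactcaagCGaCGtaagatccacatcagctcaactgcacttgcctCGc
CD44, an adhesion receptor used as a basal marker, carried neither mark and lies at chr11:35138921-35139170 on the plus strand.
CD44: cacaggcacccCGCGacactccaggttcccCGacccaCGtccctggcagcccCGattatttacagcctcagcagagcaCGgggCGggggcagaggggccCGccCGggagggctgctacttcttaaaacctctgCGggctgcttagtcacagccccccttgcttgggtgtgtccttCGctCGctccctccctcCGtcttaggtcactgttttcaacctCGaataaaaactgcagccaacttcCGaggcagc
These stretches hold 32 CG pairs at MYL3, 40 at FGFR3, 22 at CALY, 2 at LOC124905938, 26 at FOXA1 and 15 at CD44.

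The H3K4me3 lists held 21168, 20094 and 20422 peaks in replicates 1, 2 and 3, and the H3K27me3 lists 55060, 69320 and 72289. Replicate 1 of H3K27me3 thus had the fewest peaks of its mark, and read depth was not used here. H3K4me3 peaks were few and placed at starts, with 57.1 ± 1.04% (SD, n = 3) of peaks at a protein-coding promoter against 3.80 ± 0.36% of H3K27me3 peaks. By contrast, 54.0 ± 0.49% of H3K27me3 peaks and 18.5 ± 0.45% of H3K4me3 peaks lay outside protein-coding genes and their promoters. The median peak was 1334 ± 33.7 bases wide for H3K4me3 and 544 ± 8.61 bases for H3K27me3. Its fold over input was 27.7 ± 0.77 against 3.41 ± 0.10. Of 11 such measures, 10 had no overlap between the marks (each with a two-sided exact permutation p = 0.1, the smallest that 3 against 3 allow, and an adjusted p = 0.11). The share of peaks over 4 kb was the exception, at 1.87 ± 0.06% for H3K4me3 and 1.76 ± 0.17% for H3K27me3 (exact permutation p = 0.4, adjusted p = 0.4). The authors called H3K4me3 in narrow and H3K27me3 in broad mode with different q-value limits, and the part of mode and mark in these differences cannot be told apart. The fold is the peak caller's own value in each mode and need not be the same measure in both. Folds are therefore to be read within a mark, here and for single genes below. With peaks of −log10 q of at least 5, 90.9 ± 0.67% of H3K4me3 peaks but 0.935 ± 0.029% of H3K27me3 peaks remained, and the order of the marks in number, covered length and width turned around.

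Read replicate by replicate, both marks stood together at 1027, 1110 and 1149 promoters, and H3K27me3 alone at 981, 1082 and 1106. H3K4me3 alone was found at 11230, 11100 and 11110 promoters, and neither mark at 6437, 6383 and 6310. The SD between replicates was small beside the class sizes (62.3 for both, 66.3 for H3K27me3 only, 72.3 for H3K4me3 only and 63.7 for neither). H3K27me3 calls carried more uncertainty than H3K4me3 calls. Of 12240 promoters called for H3K4me3 (62.2%), 12069 had it in all 3 V16D/CTL lists (61.3%), whereas 1621 (8.24%) of the 2089 called for H3K27me3 (10.6%) did so. At the edge of the rule, 656 promoters had an H3K27me3 peak in exactly 1 list and were not called, and 468 had it in exactly 2 lists and were.

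**Figure D1:**
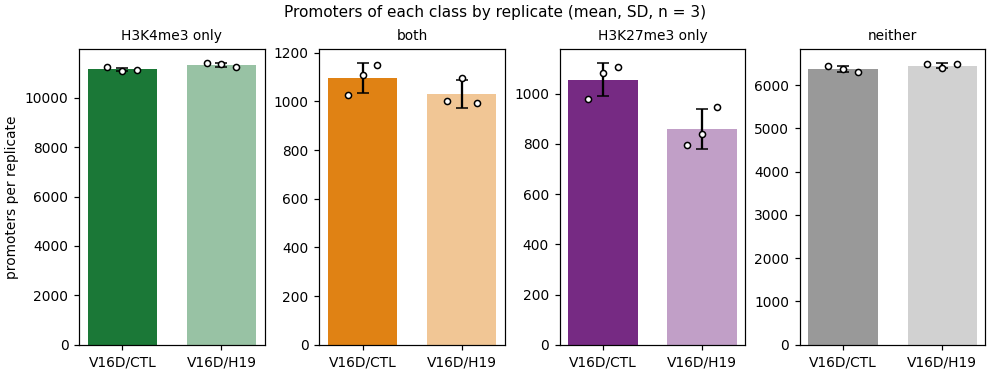
Number of protein-coding promoters of each class per replicate, in V16D/CTL (full colour) and V16D/H19 (pale). Bars are means, error bars SD and circles the 3 replicates; each panel has its own axis from 0. The 3 V16D/H19 counts of H3K27me3 only (794 to 947) lie below the 3 V16D/CTL counts (981 to 1106), while the counts of both overlap.

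The marks met at promoters less often than their separate frequencies would give. Each replicate had 0.821, 0.816 and 0.818 times the number of promoters with both marks that the margins predict (0.818 ± 0.003, SD, n = 3). Of promoters with H3K4me3, 8.95 ± 0.51% also had H3K27me3, and of those without it 14.2 ± 0.88% did. Conversely, H3K4me3 was present at 50.9 ± 0.26% of promoters with H3K27me3 and at 63.6 ± 0.15% of the others. In the V16D/H19 libraries, which the classes did not use, the ratio was 0.885, 0.896 and 0.823, above every V16D/CTL value. Promoters are not independent replicates, and these ratios are a description with the spread between triplicates.

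The class used the calls, so peak strength was read in a replicate that had no part in the class: the class came from agreement of the other 2 replicates. H3K4me3 peaks at promoters with both marks were much weaker and narrower than at promoters with H3K4me3 only. In left-out replicates 1, 2 and 3 the median fold over input was 50.2, 46.8 and 44.6 at H3K4me3 only, and 14.8, 13.8 and 14.1 at both. The median width was 2177, 2140 and 2139 bases at H3K4me3 only, and 964.5, 962 and 941 bases at both. All 3 replicates gave the same order without overlap, and with 3 pairs the smallest p of an exact sign-flip test is 0.25. At 410 ± 14.6 promoters with both marks whose H3K27me3 peaks had a −log10 q of at least 3, the H3K4me3 fold was lower still (11.8 ± 0.36) and the width 872 ± 7.15 bases. For H3K27me3, the classes were alike in fold, at 4.27 ± 0.02 for both and 4.25 ± 0.02 for H3K27me3 only. H3K27me3 peaks were 1752, 2086 and 2156 bases wide at both and 2125, 2325.5 and 2568 bases at H3K27me3 only, wider in the latter in each replicate but with overlapping ranges.

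**Figure D2:**
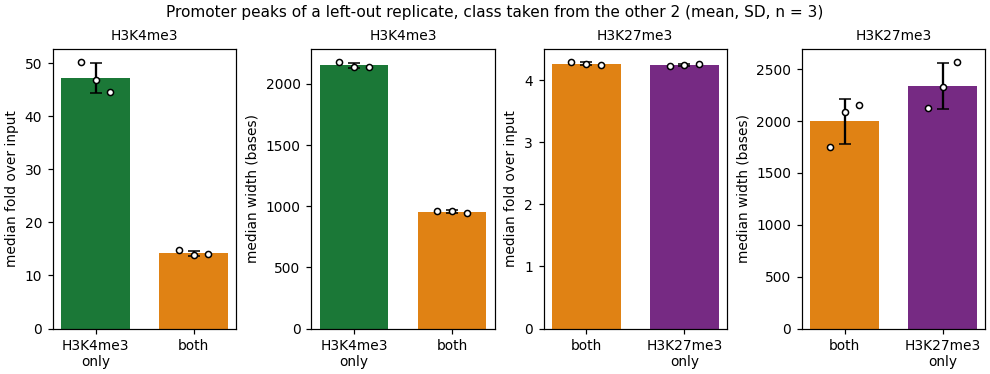
Median fold over input and median width (bases) of promoter peaks in a left-out replicate, by the class in the other 2 replicates. Bars are means, error bars SD and circles the 3 replicates; the H3K4me3 circles of both sit between 13.8 and 14.8 in fold, all below those of H3K4me3 only (44.6 to 50.2).

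Around the start, the marks had different shapes, described here for the full classes with no test. The classes used these same lists, so within 1 kb the presence or absence of a mark in a class follows from the rule. H3K4me3 covered the start itself at 93.7 ± 0.11% of H3K4me3 only promoters and at 72.9 ± 0.96% of promoters with both. At 1 kb downstream it still covered 78.3 ± 0.99% of the first but 26.5 ± 0.66% of the second. H3K27me3 leaned into the gene in both classes that carry it. At promoters with both marks its coverage went from 47.9 ± 4.09% at 500 bases upstream and 49.9 ± 3.84% at the start to 65.0 ± 5.10% at 500 bases downstream. At H3K27me3 only promoters it was 51.4 ± 5.67% at 500 bases upstream, 61.2 ± 3.57% at the start and 62.8 ± 4.50% at 500 bases downstream. The tails of H3K27me3 only were also longer, with 12.4 ± 2.00% covered at 10 kb upstream and 15.7 ± 2.42% at 10 kb downstream, against 8.36 ± 0.99% and 7.64 ± 0.42% at promoters with both. At H3K4me3 only promoters H3K27me3 coverage was low within 1 kb by the rule. Over all distances read it was at most 1.0 ± 0.16%, at 10 kb upstream.

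**Figure D3:**
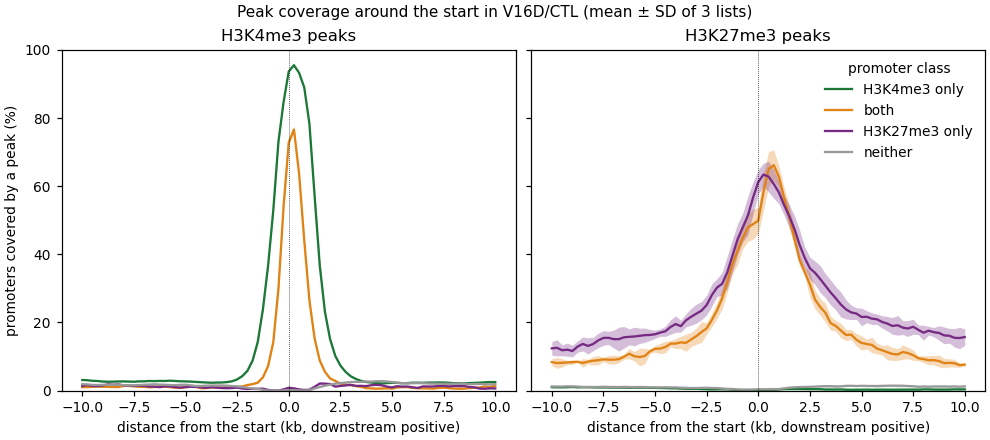
Share of promoters of each class (%) that a peak covers at each distance from the start (kb, downstream positive), for H3K4me3 (left) and H3K27me3 (right). Lines are means of the 3 V16D/CTL lists and shading is SD; the H3K27me3 line of both has a step at the start (49.9%) and is higher 500 bases downstream (65.0%).

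Where both marks were called, their peaks mostly lay on the same bases. Among 971 ± 30.4 such promoters per replicate, 886 ± 43.5 (91.2 ± 1.74%) had an H3K4me3 peak that shared bases with an H3K27me3 peak, and 84.7 ± 14.2 had them side by side, with a median gap of 241 ± 26.9 bases. The start lay inside an H3K4me3 peak at 74.1 ± 1.60%, inside an H3K27me3 peak at 53.0 ± 2.33% and inside both at 35.9 ± 2.14%. At the 456 ± 8.19 promoters whose start H3K27me3 did not cover, it was downstream only at 247 ± 8.50, upstream only at 96.7 ± 4.16 and on both sides at 113 ± 9.24. The H3K4me3 summit lay downstream of the start at 81.9 to 82.4% of H3K4me3 only promoters and at 76.3 to 78.9% of promoters with both. Its median offset was 189 to 199 bases in the first and 163 to 172 bases in the second.

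The sequence of the promoter, which the rule did not use, differed between classes. RefSeq gave 300 bases around the start (250 upstream, 50 downstream) for 13819 of the 19675 promoters (70.2%). A promoter was called CpG-rich with a ratio of observed to expected CG above 0.6 and a GC content above 50%. Of promoters with both marks 86.8% were CpG-rich and of H3K4me3 only 85.7%, against 42.0% of H3K27me3 only, 17.9% of neither and 63.7% of all. The median CG ratio was 0.839, 0.859, 0.541 and 0.270 in the same order, and the median GC content was highest at both (71%, against 62.7% over all). FGFR3 and MYL3 above, with ratios of 0.913 and 0.876, are of the first kind, whereas LOC124905938 (0.106) is among the CG-poor part of H3K27me3 only. CD44 above, with a ratio of 0.626 and a GC content of 63.3%, is CpG-rich and so unlike most promoters with neither mark. In the stricter set with H3K27me3 in all 3 lists, the CpG-rich share of H3K27me3 only was 51.3%. With peaks of −log10 q of at least 5 it was 72.0%, against 89.3% of both, so the contrast between these classes was smaller without the weaker H3K27me3 peaks.

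The ratio of promoters with both marks to the margins was 0.778 ± 0.009 among CpG-rich promoters and 0.763 ± 0.050 among the others, a difference within the spread between replicates. Among 8796 CpG-rich promoters, 88.5 ± 0.10% had H3K4me3, and H3K27me3 stood at 7.78 ± 0.57% of those with it but at 27 ± 1.1% of the 1010 ± 9.07 without it. Among 5023 promoters that were not CpG-rich, H3K27me3 stood at 7.65 ± 0.44% of those with H3K4me3 and at 10.9 ± 0.85% of those without. With every peak counted, H3K27me3 stood at 9.99 ± 0.63% of the CpG-rich and 10.0 ± 0.67% of the other promoters. With peaks of −log10 q of at least 5 in at least 2 lists it stood at 1.52% of the CpG-rich (134 promoters) and 0.637% of the others (32 promoters). Of the 655 promoters with H3K27me3 only and a sequence, 380 were not CpG-rich by all peaks, and 23 of 82 by peaks of that confidence. Of the promoters with both marks, 591 of 681 were CpG-rich by all peaks and 75 of 84 by the stricter ones.

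Short promoter motifs differed between the classes also within the CpG-rich promoters. GC content still differed there, with medians of 67% at H3K4me3 only, 72% at both, 68.7% at H3K27me3 only and 66.7% at neither. The motif shares were not matched for it. The motifs were searched on both strands of the 300 bases, and none contains another. The ETS core CCGGAAG, bound by ETS factors, was found at 23.6% of CpG-rich H3K4me3 only promoters, 4.4% of both, 4% of H3K27me3 only and 9.03% of neither (20.5% of all CpG-rich and 14.6% of all promoters). The core motif of the activator NRF1, which has 10 letters and was matched exactly, was at 3.21%, 0.677%, 0.364% and 0.958% of H3K4me3 only, both, H3K27me3 only and neither (2.76% of all CpG-rich and 1.84% of all promoters). The CCAAT box CCAAT was found at 37.6% of CpG-rich H3K4me3 only promoters and 26.1% of both (35.9% of all CpG-rich and 37.2% of all promoters). The TATA box TATAAA went the other way, at 3.49%, 6.26%, 8.73% and 7.52% of H3K4me3 only, both, H3K27me3 only and neither (4.17% of all CpG-rich and 10.0% of all promoters). The GC box GGGCGG, bound by SP factors, was found at 79.2% of CpG-rich H3K4me3 only promoters, 84.9% of both and 77.1% of H3K27me3 only (79.1% of all CpG-rich and 58.5% of all promoters). The E-box CAGGTG was at 17.5%, 15.6%, 15.3% and 22.6% for H3K4me3 only, both, H3K27me3 only and neither (17.7% of all CpG-rich and 19.6% of all promoters). A match is a stretch of letters, and binding was not measured.

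**Figure D4:**
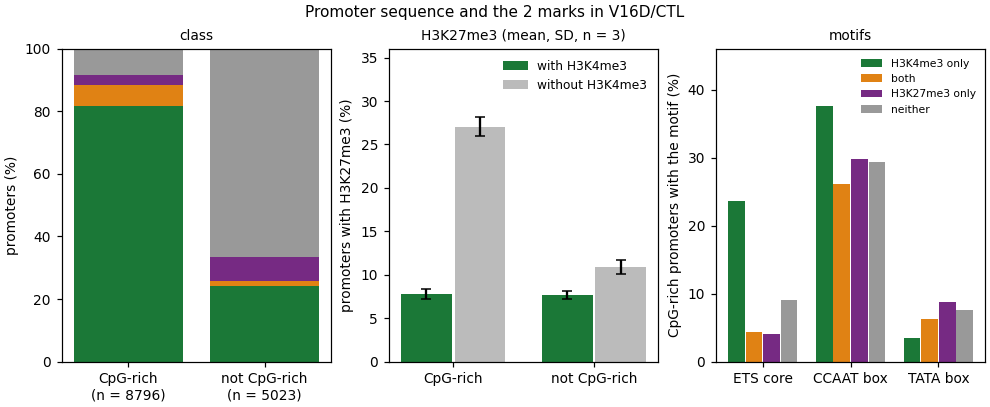
Left, classes of CpG-rich and other promoters (%). Middle, share with H3K27me3 (%) among promoters with and without H3K4me3, as mean and SD of 3 replicates, which is largest for CpG-rich promoters without H3K4me3 (27%). Right, share of CpG-rich promoters with a motif (%) by class, where the ETS core stands at 23.6% in H3K4me3 only and at 4.4% in both.

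Genes with both marks were long. Their median length was 71.9 kb, against 29.9 kb for H3K4me3 only, 18 kb for H3K27me3 only, 14.7 kb for neither and 24.8 kb for all. Of genes with both marks 42.3% exceeded 100 kb, and of all genes 17.0%. H3K4me3 only promoters lay close to another start most often, as 25.9% shared their window with another protein-coding start, against 8.36% of both and 4.39% of H3K27me3 only. Windows that overlap share peaks, and 1659 of 1689 such neighbouring pairs (98.2%) were in the same class.

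Merged over the 3 lists, H3K27me3 formed 38199 regions present in at least 2 lists, and 5.75% of them reached a protein-coding promoter. A merged region joins overlapping peaks of the lists, so it can be wider than any single peak. The widest single H3K27me3 peak was 22209, 25740 and 20832 bases in V16D/CTL replicates 1 to 3. At the FOXA2 promoter, for example, the peaks were 6500, 5489 and 16659 bases wide. The widest merged region was 35.8 kb, at chr17:79309456-79345221 (hg38), and held no protein-coding promoter. The widest merged regions that held a promoter were at GALNT9 (30.9 kb), a glycosyltransferase, and at the developmental factors FOXF1 (30.6 kb), FOXA2 (28.6 kb) and UNCX (28.5 kb). The growth factor FGF9 (27.8 kb) and the homeobox factors PAX6 (27.1 kb), OTX2 (22.6 kb) and MEIS2 (22 kb) followed, with IGF2BP1 (23.8 kb), an RNA-binding protein of fetal tissue. H3K4me3 covered 9.28% of the merged region at FGF9, 12.2% at MEIS2, 2.92% at FOXF1 and 2.21% at PAX6, and none of the others named.

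The strongest members of each class were taken by fixed ranking. Among 706 promoters with H3K27me3 in all 3 lists and H3K4me3 in none, NPTX1, which encodes neuronal pentraxin, had the highest fold over input in its weakest list (8.32, 9.77 and 7.55 in replicates 1 to 3). LOC124905938 was next with 6.35, 8.43 and 10.5, and CALY followed with 6.66, 6.23 and 6.70. PRR35 had 6.38, 6.03 and 6.09, and NKX6-2, a homeobox factor of neural progenitors, 5.91, 6.73 and 6.14. NEUROD2, a neuronal basic helix-loop-helix (bHLH) factor, had 5.78, 6.40 and 7.09 under peaks of 12774, 12359 and 11825 bases, the widest of the 10 ranked genes. PRDM12 (a factor of sensory neurons), ALKAL2 (a ligand of the ALK receptor), RSPO1 (a WNT potentiator) and BHLHE23 completed the 10, and their folds ranged from 5.76 to 7.69. By the ranking, these promoters were without H3K4me3 in every V16D/CTL list.

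Among 788 promoters with both marks in all 6 lists, the same ranking by H3K27me3 gave the following genes. MYL3 had H3K27me3 folds of 7.48, 6.27 and 7.35 and H3K4me3 folds of 6.82, 3.35 and 6.27. FGFR3 had H3K27me3 folds of 6.03, 7.36 and 6.57 and H3K4me3 folds of 21.5, 22.2 and 15.3. CCND2, which encodes cyclin D2, had H3K27me3 folds of 5.95, 5.76 and 6.96, with peaks of 3726, 9318 and 10700 bases, and H3K4me3 folds of 8.04, 6.28 and 6.63. SOCS3, a feedback inhibitor of cytokine signalling, had H3K27me3 folds of 6.67, 5.94 and 5.84 and H3K4me3 folds of 10.0, 10.6 and 10.9. NTNG2, an axon guidance protein, TMEM132E, INSYN1 and GRIP2, both synaptic scaffold proteins, and CDH11, a mesenchymal cadherin, were also among them, with H3K4me3 folds from 3.73 to 19.1. In the promoters named, the H3K27me3 peaks ran from 1586 to 10700 bases and the H3K4me3 peaks from 231 to 1216 bases.

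Among 10786 promoters with H3K4me3 in all 3 lists and H3K27me3 in none, FOXA1 had the widest H3K4me3 peak in its narrowest list, with peaks of 13261, 14514 and 13420 bases and folds of 45.3, 55.1 and 45.2. TNRC18 had 12234, 12403 and 12404 bases, and ACSL3, a long-chain acyl-CoA synthetase, 12217, 8836 and 10639 bases. EHF, an epithelial ETS factor, had 11848, 13709 and 8195 bases. PTGFR (a prostaglandin receptor), EPHA6 (an ephrin receptor), CBX3 (a heterochromatin protein), PCGF2 (a Polycomb repressive complex 1 subunit) and ARID2 (a chromatin remodeller subunit) were between 6903 and 9370 bases in every list. The median H3K4me3 peak of the class in a left-out replicate was 2152 ± 21.7 bases.

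The cells carried the promoter marks of luminal prostate cells. H3K4me3 without H3K27me3 was present in all 3 replicates at 16 of 17 luminal and androgen-responsive genes (56.8% of all promoters). KLK3, which encodes prostate-specific antigen, had H3K4me3 folds of 15.6, 22 and 27.7, KLK2 had 17.3, 9.28 and 17.1, and FKBP5 had 15.3, 7.01 and 10.9. TMPRSS2 was higher at 57.0, 57.7 and 65.4, and so were SLC45A3 (75.0, 60.7 and 35.2), HOXB13 (52.6, 53.1 and 45.1) and FOLH1 (54.0, 44.5 and 52.2). ACP3, prostatic acid phosphatase, was the weakest of the 16 at 5.50, 4.16 and 5.22. TRPM8 had neither mark at its RefSeq gene start, and had H3K4me3 at another RefSeq start.

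Basal markers mostly had neither mark, at 11 of 16 (32.6% of all promoters), among them KRT14, CDH3, COL17A1 and TRIM29. KRT5 was also in this class, with an H3K27me3 peak in replicate 2 only. NGFR (folds 6.06, 5.79 and 4.20) and KRT6A (3.46, 3.87 and 4.03) were H3K27me3 only. At 12.5%, the H3K27me3 share of the list was close to that of all promoters (10.6%). ITGA6, ITGB4 and DST, integrin subunits and a linker protein of hemidesmosomes, were H3K4me3 only (56.8% of all promoters). Neuroendocrine markers differed from both lists, as 11 of 19 had H3K27me3 (10.6% of all promoters). Of these, 8 were H3K27me3 only (5.20% of all promoters). NCAM1, a neural adhesion molecule, had H3K27me3 folds of 5.29, 4.94 and 6.09 and an H3K4me3 peak in replicate 1 only, and VGF, a secreted neuropeptide precursor, had 5.85, 5.16 and 5.08. GRP (gastrin-releasing peptide), PCSK1 (a prohormone convertase), SST (somatostatin) and SCGN had H3K27me3 in all 3 lists. The granins CHGB (4.27, 4.51 and 3.53) and CHGA (no peak, 3.35 and 3.13) were called too, CHGA only in 2 lists. PCSK2, SNAP25 and ENO2 had both marks, with ENO2 (neuron-specific enolase) strong in H3K4me3 at 30.7, 45.9 and 41.6 and weak in H3K27me3 at no peak, 2.84 and 2.79. SYP (synaptophysin) and SCG3 had H3K4me3 only, with SYP at 8.54, 5.81 and 10.9. DLL3, DDC, CALCA, SCG2, SYT1 and UCHL1 had neither.

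Marker genes of other cells were seldom under H3K4me3 (62.2% of all promoters). Fibroblast markers had neither mark at 5 of 7 (32.6% of all promoters), including COL3A1, LUM and PDGFRB, H3K27me3 alone at COL1A2 and both at COL1A1. Blood markers had H3K4me3 at 0 of 4 (CD3E and SPI1 among those with neither mark, PTPRC under H3K27me3), and skeletal muscle markers at 0 of 6, with MYOD1, DES and ACTA1 under H3K27me3. Of 3 endothelial markers KDR had both marks, and of 6 liver markers CPS1 had H3K4me3 (folds 46.6, 33.8 and 39.9), whereas ALB and APOA1 had neither. With peaks of −log10 q of at least 5, H3K27me3 was called at 0 promoters of these 5 lists and at 1.45% of all. Lists of 3 to 7 promoters are too small for 0 to be told from that share.

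Developmental transcription factors often had H3K27me3, split between H3K27me3 only and both. H3K27me3 stood at 20 of 30 tissue-specific bHLH factors (66.7%), 58 of 113 homeobox and paired-box factors outside the HOX clusters (51.3%), 10 of 19 SOX factors (52.6%), 3 of 6 GATA factors (50%), 6 of 16 T-box factors (37.5%), 14 of 39 HOX genes (35.9%) and 16 of 51 forkhead factors (31.4%), against 10.6% of all promoters. Both marks were most frequent at SOX factors (7 of 19, 36.8%) and bHLH factors (9 of 30, 30%), against 5.41% of all. The neural factor POU3F2 had H3K27me3 folds of 5.92, 4.68 and 5.81 and H3K4me3 folds of 17.7, 14.8 and 14.3. SOX21 had 4.11, 5.80 and 5.01 for H3K27me3 and 5.68, 7.45 and 13.3 for H3K4me3. NEUROG3, a proendocrine bHLH factor, was H3K27me3 only at 5.82, 5.91 and 5.64. GATA3 (5.38, 5.34 and 5.49, under peaks of 18693 to 20792 bases) and GATA5 were H3K27me3 only. GATA2, a partner of the androgen pathway in prostate cells, was H3K4me3 only, at 78.5, 58.3 and 5.39. Its widest H3K4me3 peaks at the promoter were 7456, 7647 and 578 bases, so the low fold of replicate 3 was read from a much narrower peak. FOXA2 was H3K27me3 only (5.23, 4.63 and 5.45), in contrast to its paralog FOXA1.

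The 4 HOX clusters differed from each other, an observation made after the values were seen. Over all promoters, 56.8% were H3K4me3 only, 5.20% H3K27me3 only, 5.41% both and 32.6% neither, and 10.6% had H3K27me3. In HOXD, which patterns limbs and the trunk, 8 of 9 promoters had H3K27me3 (7 alone, HOXD8 with H3K4me3), and HOXD1 had H3K4me3 only. In HOXA no promoter had H3K27me3, and 6 of 11 had H3K4me3 only and 5 neither. Of these 5, HOXA3 had H3K4me3 at another RefSeq start. In HOXC, 6 of 9 had H3K4me3 only, HOXC8 had both and 2 had neither. HOXC4, HOXC5 and HOXC6, counted among the 6, share the same RefSeq start, so their calls are not separate. In HOXB, HOXB13, the prostate HOX gene, had H3K4me3 only, 3 of 10 were H3K27me3 only, HOXB7 and HOXB9 had both and 4 had neither.

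Genes of excitable cells also often had the mark (10.6% of all promoters). H3K27me3 stood at 32 of 47 GABA and glutamate receptors (68.1%), 44 of 95 potassium channels (46.3%), 16 of 36 voltage-gated sodium and calcium channels (44.4%) and 22 of 53 clustered protocadherins (41.5%). The protocadherin share rested on weak peaks, as it was 20.8% with peaks in all 3 lists (8.24% of all), 5.66% at a −log10 q of at least 3 (5.11% of all) and 1.89% at a −log10 q of at least 5 (1.45% of all). At that limit GABA and glutamate receptors were at 4.26%, potassium channels at 8.42% and sodium and calcium channels at 11.1%. GRM3, a metabotropic glutamate receptor, was H3K27me3 only at 4.77, 6.24 and 5.01, and GRM8 had both marks, with H3K27me3 at 4.80, 5.55 and 6.41 and H3K4me3 at 27.3, 22.9 and 34.9. The calcium channel subunit CACNA1E was H3K27me3 only at 5.96, 6.01 and 5.52.

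Signalling genes had H3K27me3 at a range of shares, to be read against 10.6% of all promoters. All 10 frizzled receptors had H3K4me3, 3 of them with H3K27me3 too, as in FZD10 (H3K27me3 at 6.39, 5.56 and 5.57). The WNT ligands had H3K27me3 at 8 of 19 (42.1%), as in WNT1 (5.29, 4.97 and 4.75) and WNT6 (5.25, 5.74 and 5.07), and H3K4me3 at 6. The secreted WNT antagonists had H3K27me3 at 0 of 11 with a −log10 q of at least 5 (1.45% of all), too few promoters to be told from that share. By all peaks they had it at 5 of 11. Of these, SFRP2 (5.15, 4.74 and 6.08), DKK2 and SFRP5 were H3K27me3 only. FGF ligands had it at 9 of 22 (40.9%), including FGF3, FGF4 and FGF5, and BMP and GDF ligands at 9 of 21 (42.9%). Axon guidance genes had it at 24 of 69 (34.8%), and 18 of these had both marks, as in SLIT2, with H3K27me3 at 6.83, 5.09 and 5.14 and H3K4me3 at 13.5, 8.05 and 10.9. DCC, the netrin receptor, was H3K27me3 only (4.28, 4.33 and 4.45). Among 11 promoters known for DNA methylation in prostate cancer, 6 had H3K27me3, with CDH13 H3K27me3 only (6.85, 5.18 and 5.58). GSTP1, a glutathione transferase whose promoter is methylated in most prostate cancers, had neither mark.

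**Figure D5:**
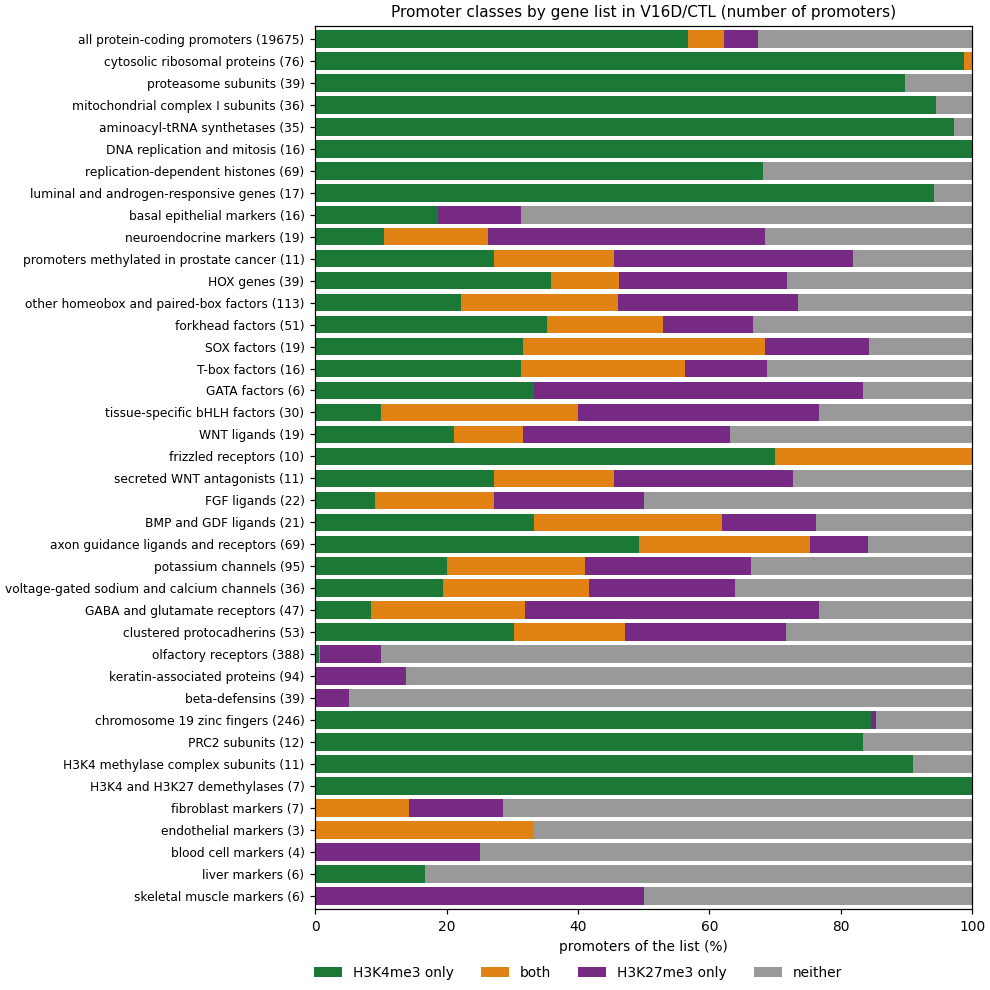
Share of promoters (%) in each class for all protein-coding promoters (top bar) and for each gene list, with the number of promoters in brackets. The bars of GABA and glutamate receptors (68.1% with H3K27me3) and bHLH factors (66.7%) contrast with ribosomal proteins, complex I and mitosis genes, which are nearly all H3K4me3 only.

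Housekeeping genes were almost wholly H3K4me3 only, at 75 of 76 cytosolic ribosomal proteins, 16 of 16 genes of DNA replication and mitosis, 34 of 36 complex I subunits, 34 of 35 aminoacyl-tRNA synthetases and 35 of 39 proteasome subunits. Of all promoters, 56.8% were H3K4me3 only. The exception among ribosomal proteins, RPL7A, had H3K4me3 folds of 53.6, 64.3 and 63.9 and H3K27me3 folds of 4.08, 3.09 and no peak. Replication-dependent histones were H3K4me3 only at 47 of 69 (68.1%, against 56.8% of all promoters) and neither at 22 (31.9%, against 32.6%). The genes for the enzymes of the 2 marks were mostly H3K4me3 only (56.8% of all promoters). The counts were 10 of 12 PRC2 subunits, 10 of 11 subunits of the H3K4 methylase complexes and 7 of 7 demethylases. EZH2 had H3K4me3 folds of 75.6, 49.7 and 76.2, and EED, the subunit that reads the mark, had 54.9, 78.3 and 85.1. The PRC2 accessory subunits AEBP2 and PHF19 had no peak at their RefSeq gene start but had H3K4me3 at another RefSeq start. Zinc finger genes of chromosome 19 were H3K4me3 only at 208 of 246 (84.6%), with both marks at 0 of 246 (5.41% of all promoters).

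Tissue-restricted families stood apart from developmental regulators. Olfactory receptors had neither mark at 349 of 388 (89.9%), keratin-associated proteins at 81 of 94 (86.2%) and beta-defensins at 37 of 39 (94.9%). Of all promoters, 32.6% had neither. Their H3K27me3 shares, 9.54%, 13.8% and 5.13%, stood against 10.6% of all promoters. Of these families, 1 olfactory receptor promoter had both marks (5.41% of all promoters). Members of these families have near-identical copies, so the placing of reads among them is uncertain.

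Some promoters of the neither class had a mark at another start. When any start in the RefSeq promoter table counted, 483 of the 6411 were H3K4me3 only, 81 both and 76 H3K27me3 only, and 5771 were still without a mark. WNT5A, RASSF1, ROBO1 and NDUFA5 were among those with H3K4me3 at another start, and WNT5B, BMP4 and CACNA1C among those with both.

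The V16D/H19 libraries, which the classes did not use, held most but not all of these marks. To compare like with like, the class was again taken from 2 V16D/CTL replicates and read in the left-out V16D/CTL replicate and in each V16D/H19 library. At promoters with both marks, H3K27me3 was called in 88.2 to 94.8% in left-out V16D/CTL replicates and in 81.6 to 84.8% in V16D/H19 libraries, without overlap. At H3K27me3 only promoters it was called in 87.0 to 93.6% and in 81.9 to 86.6%. H3K4me3 at promoters that were H3K27me3 only in V16D/CTL was called in 2.98%, 1.25% and 4.07% in left-out V16D/CTL replicates and in 10.6%, 14.4% and 7.22% in V16D/H19 replicates 1 to 3, again without overlap. With the class from V16D/H19 replicates, H3K4me3 at H3K27me3 only promoters was called in 1.19 to 7.70% of left-out V16D/H19 replicates and in 0.802 to 1.84% of V16D/CTL. With the class from V16D/CTL replicates, H3K4me3 at H3K4me3 only promoters was called in 99.7 to 99.8% in left-out V16D/CTL replicates. In V16D/H19 libraries it was called in 99.4 to 99.7%.

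Counted per replicate, V16D/H19 had fewer H3K27me3 only promoters (794, 838 and 947) than V16D/CTL (981, 1082 and 1106), and more H3K4me3 only (11391, 11354 and 11246 against 11230, 11100 and 11110). Neither pair of groups overlapped (two-sided exact permutation p = 0.1 for each, the smallest possible, and adjusted p = 0.2 over 4 classes). Promoters with both marks numbered 1001, 1096 and 994 in V16D/H19 against 1027, 1110 and 1149, with overlap (exact permutation p = 0.2, adjusted p = 0.2), and neither did not separate the groups (exact permutation p = 0.2, adjusted p = 0.2). H3K27me3 peaks of high confidence were fewer in V16D/H19, where 0.252 to 0.301% of them reached a −log10 q of 5 against 0.912 to 0.967%. With peaks of that confidence, both marks stood at 146, 164 and 184 promoters in V16D/CTL and at 42, 54 and 53 in V16D/H19 (exact permutation p = 0.1). Read depth was not used, and its part, or that of immunoprecipitation efficiency, in the differences between the groups was not tested.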

How the data were processed

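H3K4me3 and H3K27me3 were profiled by chromatin immunoprecipitation and 75 bp single-end sequencing, with 3 replicates per group. The authors called peaks in each replicate with MACS2, each against its own input, in narrow mode for H3K4me3 and broad mode for H3K27me3; the aligner is not given in the sources used here, and the submitters' notes name hg38. Every peak in a deposited list has a score, the linear ratio of its signal over input (fold), and a p-value and q-value as −log10, all from the authors' peak caller. The deposited tables of the authors' own group comparison (DiffBind concentrations, log2 fold changes, p-values) were not used.

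Starts were the 5′ ends of RefSeq genes on GRCh38.p14, with the strand from RefSeq (15842 genes) or from GENCODE by symbol (3833); 362 genes without a strand were left out. A peak counted with at least 1 base in the window of 1 kb on either side. Counts are given per replicate with mean ± SD; group differences were tested with two-sided exact permutation tests (20 assignments) and Benjamini-Hochberg adjustment, in Python 3.11.15 with NumPy 2.4.6, pandas 2.3.3 and SciPy 1.17.1, after the code was tested on simulated data. Read depth was not used, so no counting interval was computed. Named genes were, per class, the 10 with the highest H3K27me3 fold in the weakest list (H3K4me3 only: the widest peak), and up to 4 per gene list and class, or all of the luminal, basal and neuroendocrine lists; some genes that these rules name are not reported here. The members and lists were chosen with earlier results of these data known. Same-numbered libraries did not deviate together over 1 Mb bins (r from −0.064 to 0.040), so numbers were not used as pairs in the main tests. The 2 marks of a replicate were still called against the same input. With numbers as pairs, each of the 10 mark measures without overlap had an exact sign-flip p = 0.25, the smallest possible.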

Additional observations from a re-analysis of the deposited data

How the results depend on the processing

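The classes rest most on the peak threshold. With a −log10 q of at least 5, H3K27me3 only fell to 136 promoters and both to 150; with at least 3, a limit chosen after seeing the data, they were 453 and 552. For genes of every kind (47532 starts) H3K4me3 only was 30.9%, both 2.92% and neither 61.2%, and H3K27me3 only stayed near its share (5.00%). The other windows, overlaps and list rules, and leaving out each replicate, kept every class within 1.5 times its count. The ratio of both to the margins was below 1 under every alternative run, at 0.772 (500 bases either side), 0.829 (2 kb), 0.837 and 0.894 (−log10 q of at least 5 and 3), 0.815 (lists of equal length) and 0.805 (200 bases of overlap). The CpG-rich share with peaks in 3 of 3 lists was 85.9% for H3K4me3 only, 51.3% for H3K27me3 only and 18.6% for neither; with a −log10 q of at least 5 it was 85.9%, 72.0%, 89.3% for both and 20.9%.

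Between the marks, a −log10 q of at least 5 reversed the difference (H3K27me3 minus H3K4me3) in peak number to −18076.3, in covered length to −27.1 Mb and in median width to 1600.5 bases, and lists of equal length over both marks reversed the covered length to −3.02 Mb; these settings keep fewer H3K27me3 peaks by construction. Of 39 gene lists, 25 had a larger H3K27me3 share than all promoters, and 19 of these also did at a −log10 q of at least 5.

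V16D/H19 minus V16D/CTL in promoters with both marks was −65 with and without the replicate block (exact sign-flip p = 0.25, the smallest possible), and the block changed no call. With 1 library left out it ranged from −99.2 (V16D/CTL replicate 1) to −38.2 (V16D/CTL replicate 3), and was −97.8 without V16D/H19 replicate 2. It was −200.3 with a −log10 q of at least 3, −115 with at least 5, −101 for peaks that share bases and −39 for windows of 2 kb. It was negative under every alternative run.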
